A study of Homo sapiens with 24 samples.

Results

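The mRNAs of mitochondrial ribosomal proteins were examined in A2058 cells, a human melanoma line. The members were the protein-coding genes of the raw count table whose symbol begins with MRPL or MRPS followed by a number and at most 1 letter. This rule found 76 genes among 19086 protein-coding genes, 48 named for the large subunit (MRPL) and 28 for the small subunit (MRPS). MRPS21 and MRPL45, which bear symbols of the same form, were not analysed here.

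Cells received a control siRNA (siCTRL) or an siRNA against LSM14A (siLSM14A), an RNA-binding protein of cytoplasmic RNP granules, and were then left untreated (NT) or exposed to hydroxyurea (HU, 10 mM for 2 h), which slows DNA replication by limiting deoxynucleotides. Each of the 4 conditions, siCTRL NT, siCTRL HU, siLSM14A NT and siLSM14A HU, had 3 replicates. For each replicate total RNA and RNA pooled from heavy polysome fractions (13 to 17 of a sucrose gradient) were sequenced after polyA selection, which gave 24 libraries. The labels name no allele, and all groups share the background of 1 cell line. They do not say whether replicates were separate cultures, so p-values measure the spread between these samples, which may be technical.

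Mitochondria carry their own ribosome, which translates the few proteins encoded in mitochondrial DNA, all of them subunits of the respiratory chain and of ATP synthase. Its RNA is made inside the mitochondrion, but every one of its proteins is encoded in the nucleus, translated on cytosolic ribosomes and imported. Polysome fractions therefore report on the cytosolic translation of these mRNAs and not on the mitochondrial ribosome itself. Lighter polysome fractions were not sequenced, so an mRNA that is low in the pooled heavy fractions may still be translated in lighter ones. Many of the proteins have a counterpart in bacterial ribosomes and others occur only in mitochondria.

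Library totals ran from 24789280 to 44897501 counts, and levels are given as CPM, counts divided by a library size scaled by trimmed mean of M values (TMM). LSM14A stood at 80.9 to 91.0 CPM in the 6 total RNA libraries with siCTRL and at 6.14 to 8.31 CPM in the 6 with siLSM14A, so the knockdown matched every label. The melanocyte lineage genes SOX10 (550 to 666 CPM) and DCT (653 to 912 CPM) were high in total RNA, while MLANA was at 5.48 to 10.2 CPM. Of the markers of dedifferentiated melanoma, AXL was at 160 to 208 CPM, NGFR at 38.5 to 56.8 and EGFR at 0 to 0.0716. Defining markers of other cell types were at or near 0, with KRT14 the highest at 0.997 to 2.83 CPM. In bulk RNA fewer cells of a type and less RNA per cell cannot be told apart.

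The members differed in how they divided between total and polysomal RNA, though their ratios spread less than those of all genes. For either treatment 0 members passed the edgeR threshold, beside 0% of all genes for hydroxyurea and at most 0.802% for the knockdown. The coding sequences that follow are those of the 2 members with the highest and the 2 with the lowest polysomal to total ratio. They are shown because the ratio followed base composition among the members. Each line gives the first 195 bases from the start codon, 5′ to 3′, read from the GRCh37 (hg19) genome with the GENCODE canonical transcript, and capitals mark G or C at the third position of a codon.

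MRPL28: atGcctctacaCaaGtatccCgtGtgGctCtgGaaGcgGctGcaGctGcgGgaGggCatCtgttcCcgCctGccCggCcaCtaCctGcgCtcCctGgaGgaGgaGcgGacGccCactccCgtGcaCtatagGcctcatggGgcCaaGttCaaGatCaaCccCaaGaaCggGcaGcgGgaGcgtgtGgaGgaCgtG
MRPL24: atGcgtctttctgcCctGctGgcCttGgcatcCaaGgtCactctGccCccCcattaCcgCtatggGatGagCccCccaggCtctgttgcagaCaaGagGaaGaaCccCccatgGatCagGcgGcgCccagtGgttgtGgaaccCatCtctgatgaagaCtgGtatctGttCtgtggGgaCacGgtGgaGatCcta
MRPL33: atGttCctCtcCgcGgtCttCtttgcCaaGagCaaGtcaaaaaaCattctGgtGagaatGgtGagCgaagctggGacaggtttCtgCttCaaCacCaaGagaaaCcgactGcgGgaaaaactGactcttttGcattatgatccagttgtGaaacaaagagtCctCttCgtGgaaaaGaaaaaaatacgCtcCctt
MRPL50: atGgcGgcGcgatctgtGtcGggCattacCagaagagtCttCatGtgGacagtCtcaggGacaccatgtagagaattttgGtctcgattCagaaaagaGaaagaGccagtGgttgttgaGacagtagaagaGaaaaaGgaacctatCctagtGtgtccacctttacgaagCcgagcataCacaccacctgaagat

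In this window G or C stood at the third position in 56 of 65 codons of MRPL28 and in 44 of 65 codons of MRPL24. The counts were 37 of 65 codons for MRPL33, whose whole coding sequence this is, and 25 of 65 codons for MRPL50. Over whole coding sequences the share was 82.8% in MRPL28, 61.6% in MRPL24, 56.9% in MRPL33 and 37.3% in MRPL50. The median of the members was 57.7%, so MRPL33 lay near it despite its low ratio. From the first to the last coding base, introns included, MRPL28 lies at chr16:417678-420218 and MRPL24 at chr1:156707193-156708496, both on the minus strand. MRPL33 lies at chr2:27994645-28002346 on the plus strand and MRPL50 at chr9:104152751-104160874 on the minus strand.

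In total RNA the members were measured steadily. Their summed level lay between 4372 and 4758 CPM in the 12 total RNA libraries, with means of 4588 ± 122 for siCTRL NT, 4648 ± 142 for siCTRL HU, 4540 ± 149 for siLSM14A NT and 4655 ± 78.3 for siLSM14A HU (SD, n = 3 each). The ranges of the 4 conditions overlapped. The median coefficient of variation of a member over the 12 libraries was 5.48%, beside 7.51% over all 12855 genes tested in the 24 libraries. The members and all genes were not matched on level.

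Levels between members were compared per kilobase of exon, taking the mean CPM of the 12 total RNA libraries over the union of all annotated exons. MRPS34, a mitochondria-specific small subunit protein, was the highest at 128 CPM per kb, followed by MRPL51 (122), MRPL41 (104) and MRPL24 (80.5), a protein at the exit of the peptide tunnel. The median of the 76 members was 21.7 CPM per kb. MRPL30 was lowest, with 0 or 1 counts in every library, and was the single member that did not pass edgeR's filter on low counts in any comparison. MRPS24 (3 to 36 counts), MRPL38 (17 to 55 counts) and MRPL46 (144 to 322 counts) came next. Of the exonic bases of MRPL30, MRPS24, MRPL38 and MRPL46, 88.2%, 76.8%, 58.9% and 88.7% lay outside the exons of other genes on their strand. Whether the low counts of these genes understate their mRNA was not tested. The order depends on the length chosen: per kilobase of the canonical transcript, a setting added after the data were seen, MRPL33 was highest at 195 CPM per kb in place of 64.7 over the exon union, and the median was 41.8 CPM per kb.

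By CPM in total RNA MRPS34 ranged from 123 to 151 (median 139), MRPL51 from 148 to 182 (median 169) and MRPL41 from 51.4 to 67.3 (median 61.5). These ranges of MRPS34 and MRPL51 touched, and that of MRPL41 lay below both. In polysomal RNA MRPS34 ranged from 171 to 281 CPM (median 210), above all of its total RNA values, whereas MRPL51 ranged from 135 to 198 CPM (median 149) and overlapped its total RNA range.

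In polysomal RNA the summed level of the members was higher under TMM, whereas their shares of all counts, given below, overlapped between the fractions. It lay between 5476 and 7302 CPM, with means of 5974 ± 475 for siCTRL NT, 6424 ± 710 for siCTRL HU, 6431 ± 760 for siLSM14A NT and 5935 ± 133 for siLSM14A HU (SD, n = 3 each). The highest sums came from replicate 2 of siLSM14A NT (7302) and replicate 2 of siCTRL HU (7211). Replicate 2 held the highest sum in 8 of 8 groups of 3 libraries, total and polysomal.

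**Figure D1:**
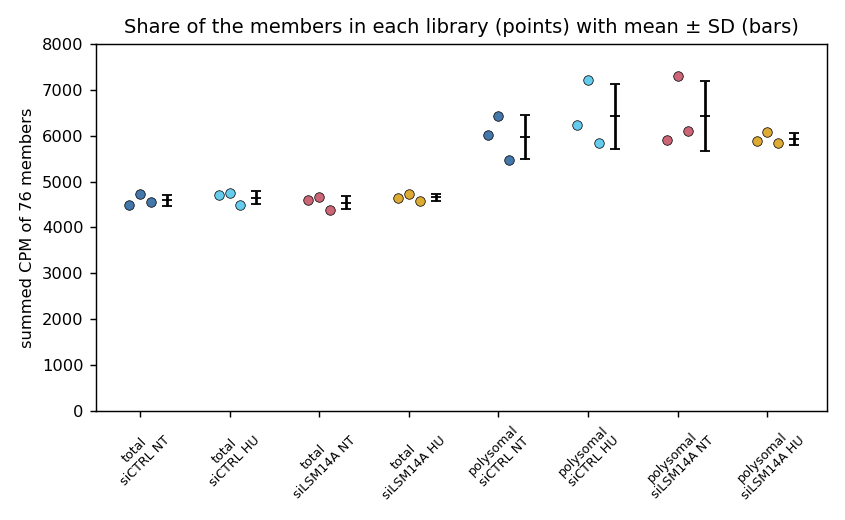
The summed CPM of the 76 members (vertical axis) is plotted for each of the 24 libraries by fraction and condition (horizontal axis), with points for libraries and black bars for the mean ± SD of 3. The 12 total RNA libraries sit between 4372 and 4758 CPM and the 12 polysomal libraries between 5476 and 7302 CPM under TMM, while shares of all counts (0.495% to 0.532% and 0.508% to 0.638%) overlapped.

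The log2 ratio of a member was its log2 CPM in polysomal RNA minus that in total RNA, taken for the 12 pairs of libraries with the same condition and replicate number. TMM raised these ratios by 0.34 on average (0.22 to 0.48 by pair) over scaling by library totals, so they are read here against the median of all genes, which was -0.07 under TMM. The median over 75 members of the mean of 12 pairs was 0.35, that is 0.42 above the median of all genes under either scaling. By library totals, an alternative added after the data were seen, the members' median was 0.01 and that of all genes -0.41. As a share of all counts the members took 0.495% to 0.532% of total RNA libraries and 0.508% to 0.638% of polysomal libraries.

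The ratios of single members spanned a wide range, though a narrower one than those of all genes. The member means had an SD of 0.537 between members, beside 0.832 over all 12855 genes, which were not matched to the members on level. The median SD of a member over 12 pairs was 0.183. MRPL28 had the highest mean ratio at 1.57 ± 0.197 (SD, n = 12 pairs), a 2.97-fold excess in polysomal RNA, and MRPL33 the lowest at -1.01 ± 0.189, a fold of 0.498. In 12 of 12 pairs the ratio was above 0 for 39 members and below 0 for 12 members. Over all genes the shares above and below 0 in every pair were 30.1% and 33.6%.

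**Figure D2:**
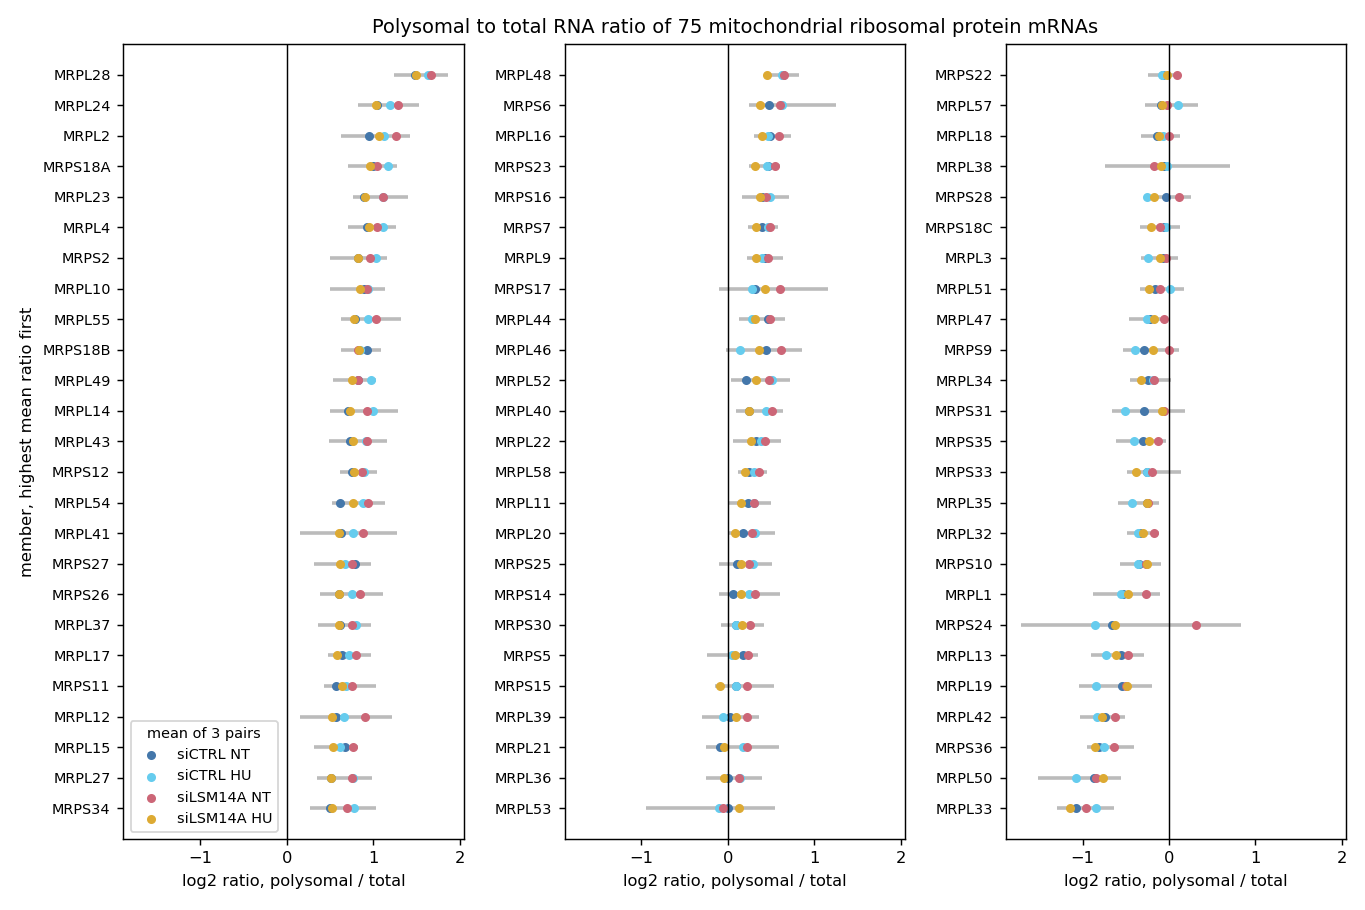
The log2 ratio of polysomal to total RNA (horizontal axis) is plotted for 75 members, ordered by their mean, with points for the mean of 3 library pairs in each condition and grey lines from the lowest to the highest of 12 pairs. MRPL28 stands at 1.57 and MRPL33 at -1.01, and for most members the 4 condition means lie close together compared with the distance between members.

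MRPL28, a large subunit protein with a bacterial counterpart, was measured in total RNA at 99.3, 105 and 97.7 CPM in siCTRL NT, 104, 106 and 93.9 in siCTRL HU, 102, 106 and 85.4 in siLSM14A NT, and 108, 108 and 97.4 in siLSM14A HU. In polysomal RNA it was at 264, 361 and 231 CPM in siCTRL NT, 270, 390 and 289 in siCTRL HU, 285, 377 and 279 in siLSM14A NT, and 311, 291 and 283 in siLSM14A HU. Every polysomal value lay above every total RNA value. The log2 difference between fractions ran from 1.5 (SE 0.163) in siCTRL NT, and likewise 1.5 (SE 0.0885) in siLSM14A HU, to 1.70 (SE 0.148) in siLSM14A NT, with edgeR quasi-likelihood adjusted p-values between 5.55e-06 and 0.000337 over the 4 conditions.

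MRPL33, the shortest member, with 65 codons, showed the opposite pattern. It was at 98.9, 108 and 95.9 CPM in total RNA and 51.9, 46.4 and 45.7 CPM in polysomal RNA of siCTRL NT, and at 94.7, 108 and 89.3 against 47.7, 61.0 and 42.4 in siLSM14A NT. In siCTRL HU the total RNA values were 99.3, 110 and 95.7 CPM and the polysomal values 63.6, 63.6 and 44.5. In siLSM14A HU they were 94.7, 97.7 and 98.4 CPM against 42.6, 49.0 and 39.8. No polysomal value reached the lowest total RNA value. The log2 differences between fractions were -1.07, -0.82, -0.93 and -1.15 in siCTRL NT, siCTRL HU, siLSM14A NT and siLSM14A HU, with SEs from 0.0984 to 0.152 and edgeR adjusted p-values from 5.89e-05 to 0.000868. Of its exonic bases 78.9% were unshared, that is, outside the exons of other genes on its strand.

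Between the fractions, edgeR called 35 members higher and 9 lower in polysomal RNA of siCTRL NT at an adjusted p under 0.05, out of 75 tested, beside 31.4% and 32.3% of all 12431 genes tested. In siCTRL HU 39 were higher and 15 lower, beside 36.2% and 37.4% of all genes. In siLSM14A NT 41 were higher and 6 lower, beside 32.1% and 32.3% of all genes, and in siLSM14A HU 36 were higher and 12 lower, beside 32.8% and 34.1% of all genes. The median log2 differences of the members were 0.25, 0.31, 0.45 and 0.25 in this order, and those of all genes -0.03, -0.05, -0.03 and -0.04. The direction of the calls depended on the scaling. By library totals the higher and lower calls were 20 and 24 in siCTRL NT, 22 and 28 in siCTRL HU, 26 and 21 in siLSM14A NT, and 20 and 25 in siLSM14A HU. The calls also depended on single replicates, each left out with both its total and its polysomal library. Higher and lower calls were 24 and 3 in siCTRL NT without replicate 2, 29 and 4 without replicate 1, and 35 and 12 without replicate 3. They were 29 and 3 in siLSM14A NT without replicate 3, and 25 and 5 in siLSM14A HU without replicate 1. With GC correction the higher and lower calls were 36 and 9 in siCTRL NT and 37 and 7 in siCTRL HU. They were 48 and 6 in siLSM14A NT, and 41 and 11 in siLSM14A HU.

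Across conditions 34 of the 75 members tested were called higher in polysomal RNA in all 4 and 5 were called lower in all 4, while 15 were called in none. Over the 12277 genes tested in all 4 conditions the shares were 28% higher and 27.3% lower. The 5 members lower in every condition were MRPL33, MRPL50, MRPS36, MRPL42 and MRPL13. With GC correction the mean differences of these 5 became -0.58, 0.11, -0.13, -0.04 and 0.17. MRPL19 stood beside them at a mean ratio of -0.59 ± 0.273 (SD, n = 12), called in 3 conditions, with an edgeR adjusted p of 0.0549 in the remaining one. At the other end, after MRPL28, came MRPL24 (1.14 ± 0.200), MRPL2 (1.11 ± 0.221), MRPS18A (1.04 ± 0.162), MRPL23 (1.01 ± 0.212) and MRPL4 (1.01 ± 0.226), and with GC correction the edgeR differences of these 5, averaged over the 4 conditions, became 0.69, 0.85, 0.39, 0.21 and 0.31.

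Among small subunit proteins with a bacterial counterpart, MRPS12, which lines the decoding centre, had a mean log2 ratio of 0.82 ± 0.159 and MRPS2 one of 0.91 ± 0.193 (SD, n = 12). MRPS7, of the head of the small subunit, stood at 0.42 ± 0.123 and MRPS16 at 0.42 ± 0.161. By edgeR with TMM all of these were called higher in the 4 conditions, and by library totals MRPS7 and MRPS16 stood at 0.08 and 0.09. Of the mitochondria-specific proteins, MRPS27, which carries pentatricopeptide repeats, was at 0.71 ± 0.186 and MRPS34 at 0.63 ± 0.235, while MRPS22 was at -0.02 ± 0.122 and was called in no condition. MRPS36, at -0.76 ± 0.157, bears a ribosomal name but has since been assigned to the 2-oxoglutarate dehydrogenase complex.

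Mammals have MRPS18A, MRPS18B and MRPS18C in place of the single S18 protein of bacteria, and the A form is built into the large subunit. The mRNAs of these paralogs divided differently between the fractions. MRPS18A ranged from 50.2 to 59.2 CPM (median 56.6) in total RNA and from 88.4 to 136 (median 112) in polysomal RNA. MRPS18B ranged from 81.2 to 94.9 CPM (median 90.6) and from 145 to 199 (median 166). For these 2 genes the fractions did not overlap. MRPS18C ranged from 27.7 to 33.4 CPM (median 30) in total RNA and from 24.3 to 34.5 (median 27.8) in polysomal RNA, so its fractions overlapped. The mean log2 ratios were 1.04 ± 0.162, 0.86 ± 0.160 and -0.10 ± 0.164 (SD, n = 12), and the highest MRPS18C value of any pair (0.13) lay below the lowest MRPS18A and MRPS18B values (0.71 and 0.63). Their exonic GC contents were 57.7%, 51.1% and 37.3%. With log2 CPM corrected for GC content, the edgeR differences averaged over the 4 conditions became 0.39, 0.65 and 0.70, in place of 1.06, 0.87 and -0.09, so the order of the paralogs turned round.

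**Figure D3:**
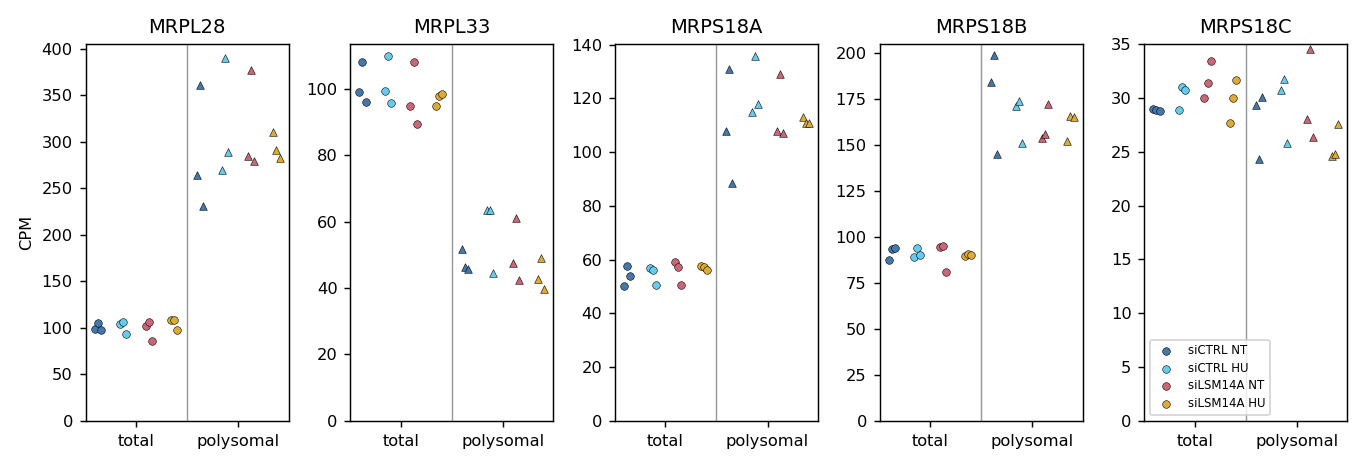
CPM (vertical axis, from 0) in each of the 12 total RNA libraries (circles) and 12 polysomal libraries (triangles) is plotted for MRPL28, MRPL33 and the 3 MRPS18 paralogs, coloured by condition. MRPL28, MRPS18A and MRPS18B lie higher in every polysomal library, MRPL33 lies lower in every one, and the fractions of MRPS18C overlap.

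Of the large subunit proteins, MRPL2, MRPL3 and MRPL4 lie near the catalytic core and the tunnel that starts there. MRPL2 and MRPL4 were near the top of the range, whereas MRPL3 was at -0.11 ± 0.120 (SD, n = 12) and was called lower in siCTRL HU alone. MRPL10, MRPL11 and MRPL12 belong to the stalk that recruits translation factors. MRPL10 stood at 0.90 ± 0.190, MRPL12 at 0.66 ± 0.327 and MRPL11 at 0.24 ± 0.155 (-0.09 by library totals). MRPL12 had 155 to 347 counts a library, and 30.5% of its exonic bases were unshared. MRPL44, which has a ribonuclease III-like fold, was at 0.39 ± 0.155 (0.05 by library totals) and MRPL58, a peptidyl-tRNA hydrolase that became a ribosomal protein, at 0.27 ± 0.111 (-0.06 by library totals). MRPS30, a large subunit protein despite its name and the longest member with 439 codons, was at 0.15 ± 0.123 (-0.18 by library totals).

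By symbol, the median mean ratio was 0.36 over the 47 MRPL genes tested and 0.20 over the 28 MRPS genes, with interquartile ranges of -0.10 to 0.71 and -0.13 to 0.64. The difference was not tested, and the MRPS symbols include MRPS18A, MRPS30 and MRPS36, which are not small subunit proteins. Members with a bacterial homolog had a median of 0.38 (n = 46) and those without one 0.27 (n = 29). Of the longest members, MRPS30, MRPS5 (430 codons) and MRPL37 (423 codons) had mean ratios of 0.15, 0.13 and 0.70. The shortest, MRPL57 (102 codons), MRPL34 (92 codons) and MRPL33 (65 codons), had mean ratios of -0.02, -0.23 and -1.01.

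Members of higher GC content had higher mean ratios, and so did genes at large. Across the 75 members Spearman's rho between mean log2 ratio and exonic GC content was 0.66, and across all 12855 genes it was 0.67. These correlations are across genes, which share the same 24 libraries and are no independent replicates. For the GC content at the third codon position rho was 0.60 across members and 0.59 across all genes. For coding length it was 0.12 and -0.02. For the length of the 3′ untranslated region it was -0.14 across members and -0.39 across all genes, and for that of the 5′ untranslated region 0.14 and -0.22. With the 63 members that had at least 500 counts in every library and 80% of exonic bases to themselves, rho with exonic GC content was 0.71.

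The 25 members with the lowest GC content (35.0% to 42.9%) had a median ratio of -0.21, and 7 were above 0. The middle 25 (42.9% to 52.2%) had a median of 0.41 with 20 above 0, and the 25 with the highest GC content (52.2% to 66.7%) had a median of 0.72 with 22 above 0. All genes in the same ranges had medians of -0.70, -0.19 and 0.59, so the members lay above the rest most in the low and middle ranges. MRPL28 has 62.8% GC in its exons, MRPL24 54.0%, MRPL33 43.6% and MRPL50 35.0%. Correction for GC content changed the edgeR difference, averaged over the 4 conditions, from 1.59 to 0.77 for MRPL28, from -0.99 to -0.58 for MRPL33 and from -0.87 to 0.11 for MRPL50. It also turned the sign of MRPL13 (-0.58 to 0.17) and MRPL19 (-0.57 to 0.15), which were lower in polysomal RNA before it, and MRPS34, MRPL41 and MRPL12 stood at -0.19, -0.05 and -0.14 after it. Whether GC content acts on translation, fractionation or library preparation was not tested.

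**Figure D4:**
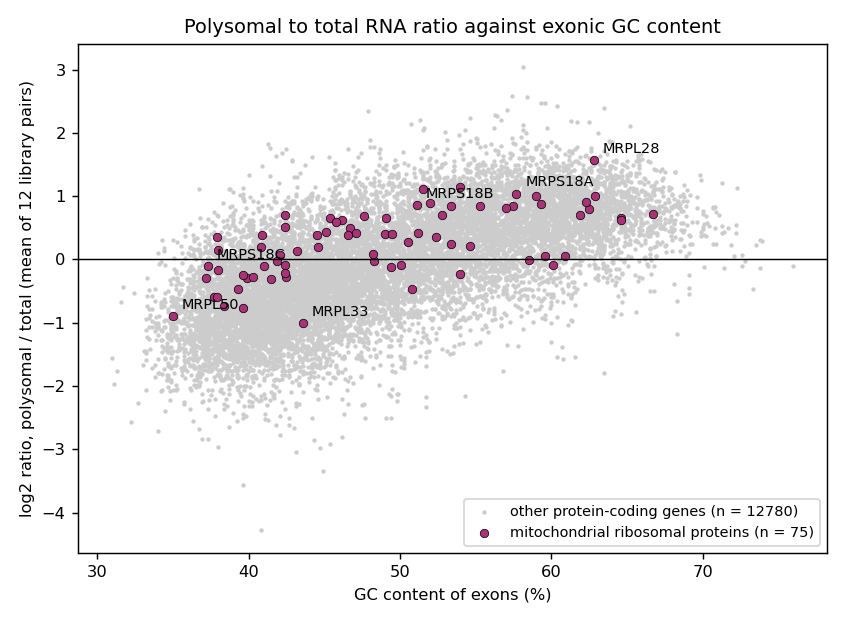
The mean log2 ratio of polysomal to total RNA over 12 library pairs (vertical axis) is plotted against exonic GC content in percent (horizontal axis) for the 75 members in purple and the other protein-coding genes tested in grey. Members climb with GC content (Spearman's rho of 0.66, and 0.67 over all 12855 genes), from MRPL50 at 35.0% GC to MRPL28 at 62.8%.

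The members had short 5′ leaders and short coding sequences. Their median 5′ untranslated region was 30 bases and their median coding sequence 588 bases, beside 141 and 1420 bases over all genes tested. Cytosolic ribosomal protein genes had medians of 42 and 456 bases and respiratory chain genes medians of 53 and 424 bases. RefSeq promoters (GRCh38.p14, 250 bases before to 50 after the start site) were matched for 67 members. The letters CCGGAAG, the core of sites bound by ETS factors, were found on either strand in 28 of them (41.8%), beside 14.6% of 14826 promoters of protein-coding genes, 33.8% of cytosolic ribosomal protein promoters and 30.2% of respiratory chain promoters. The core of the site of NRF1, a regulator of nuclear genes for mitochondria, was found in 7 (10.4%), beside 8.81% of all, 10.8% of cytosolic ribosomal protein promoters and 23.8% of respiratory chain promoters. A start site of C followed by 4 pyrimidines, as in the mRNAs of cytosolic ribosomal proteins, occurred in 4 member promoters (5.97%), in 66.2% of 65 cytosolic ribosomal protein promoters and in 4.69% of all. These are matches of letters and not measured sites.

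Knockdown of LSM14A without hydroxyurea changed no member beyond the threshold in total RNA. The comparison asks whether LSM14A sets the level of these mRNAs. By edgeR 0 of 75 members were called, beside 0.566% of 12544 genes, and 2 members had an unadjusted p under 0.05, beside 10.8% of genes. DESeq2 also called 0 members. The median log2 difference of the members was -0.03 and that of all genes 0. Among lower members MRPL4 had the smallest p, at 39.2, 38.7 and 38.3 CPM in siCTRL NT and 36.1, 34.8 and 31.5 CPM in siLSM14A NT. Its groups did not overlap, which held for 6 of 75 members in this direction, beside 8.08% of all genes. The log2 difference of MRPL4 was -0.18 (SE 0.0643, edgeR adjusted p of 0.328). Among higher members MRPL35 had the smallest p, with a log2 difference of 0.12 (SE 0.0517, edgeR adjusted p of 0.456).

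Under hydroxyurea the knockdown again gave 0 called members of 75 in total RNA, beside 0.802% of 12475 genes, by edgeR and by DESeq2. No member had an unadjusted p under 0.05, beside 8.54% of genes, and the members' median was -0.02. MRPL20 (0.10, SE 0.0527) and MRPL47 (-0.12, SE 0.063) had the smallest p in each direction, with edgeR adjusted p-values of 0.631 and 0.65.

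In polysomal RNA the knockdown without hydroxyurea called 0 of 75 members by edgeR and by DESeq2, beside 0.0162% of genes, and 1 member, MRPS24, had an unadjusted p under 0.05, beside 1.96% of genes. MRPS24 had at most 36 counts in a library. The median log2 difference of the members was 0.13 beside -0.01 for all genes, and 66 of 75 were above 0. All members share the same libraries, so counts of members above 0, here and below, are not independent results. In 6 members the siLSM14A NT libraries all lay above the siCTRL NT libraries, beside 2.97% of all genes in this direction. Without replicate 2 of siLSM14A NT, the library with the highest sum, the members' median was 0.01. Under hydroxyurea the same knockdown gave a median of -0.12, with 18 of 74 members above 0, and a median of -0.02 without siCTRL HU replicate 2. Here edgeR and DESeq2 called 0 members, beside 0.0653% of genes, and 2 had an unadjusted p under 0.05, beside 4.99% of genes. They were MRPL19 (0.40, SE 0.175) and MRPL33 (-0.38, SE 0.169), both with an edgeR adjusted p of 0.739.

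The ratio of polysomal to total RNA, called translation efficiency (TE) in studies of this kind, was tested by how far the difference between conditions depended on the fraction. Knockdown without hydroxyurea called 0 of 75 members by edgeR and by DESeq2, beside 0% of 12757 genes, and 0 had an unadjusted p under 0.05, beside 0.87% of genes. The members' median was 0.13, with 68 of 75 above 0, beside -0.01 for all genes. In 4 members the 3 ratios of siLSM14A NT all lay above those of siCTRL NT, beside 1.45% of genes. These were MRPS30, MRPS24, MRPL15 and MRPL52. The median was 0.05 without replicate 2 of siLSM14A NT.

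Under hydroxyurea the knockdown called 0 of 75 members for TE by edgeR and by DESeq2, beside 0% of genes. The members' median was -0.11 with 23 of 75 above 0, and it was -0.04 after correction for GC content and -0.03 without siCTRL HU replicate 2. MRPS31 alone had an unadjusted p under 0.05, beside 3.85% of genes. It was at 18.3, 18.5 and 21.6 CPM in polysomal RNA of siCTRL HU and at 23.7, 19.9 and 28.9 in siLSM14A HU, groups that overlapped, while its total RNA was at 26, 29.2 and 28.1 against 22.9, 26 and 27.1 CPM. The TE difference was 0.46 (SE 0.195, edgeR adjusted p of 0.778). In 6 members, MRPL37, MRPS18A, MRPL14, MRPL49, MRPL57 and MRPL27, the siLSM14A HU ratios all lay below the siCTRL HU ratios, beside 5.97% of genes. The share of members that did so was close to that background.

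Hydroxyurea alone changed no member beyond the threshold. In siCTRL cells total RNA gave 0 of 75 called by edgeR and by DESeq2, beside 0% of genes, 0 with an unadjusted p under 0.05, beside 1.44% of genes, and a median of 0.02. Polysomal RNA gave 0 of 74 called, beside 0% of genes, 0 with an unadjusted p under 0.05, beside 2.10% of genes, and a median of 0.09. TE gave 0 of 75 called, beside 0% of genes, 0 with an unadjusted p under 0.05, beside 2.31% of genes, and a median of 0.07. Without siCTRL HU replicate 2 the polysomal and TE medians were both 0.01. MRPS34 had the smallest p among the members that were higher, with 187, 224 and 181 CPM in polysomal RNA of siCTRL NT and 208, 277 and 238 in siCTRL HU. Its polysomal difference was 0.28 (SE 0.165) and its TE difference 0.28 (SE 0.174), with edgeR adjusted p-values of 0.933 and 0.956, and its groups overlapped.

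In siLSM14A cells hydroxyurea again gave 0 called members by edgeR and by DESeq2 in total RNA, polysomal RNA and TE, beside 0% of genes in each. Unadjusted p-values under 0.05 were found for 2 members in total RNA, MRPL55 and MRPL20, beside 5.20% of genes, for 0 in polysomal RNA, beside 0.871% of genes, and for 0 in TE, beside 1.41% of genes. The medians were 0.02, -0.13 and -0.16, beside 0, 0.01 and 0.01 for all genes, and 4 of 75 members were above 0 in polysomal RNA and 5 of 75 in TE. In 12 members the polysomal siLSM14A HU libraries all lay below those of siLSM14A NT, beside 3.68% of genes, and in 9 members the ratios did so, beside 3.85% of genes. MRPL15 was among them, with 152, 159 and 153 CPM in polysomal RNA of siLSM14A NT and 138, 127 and 130 in siLSM14A HU. Its TE difference was -0.24 (SE 0.116, edgeR adjusted p of 1). Without replicate 2 of siLSM14A NT the members' median was -0.01 in polysomal RNA and -0.10 in TE. This comparison and the knockdown without hydroxyurea share the 3 siLSM14A NT libraries of each fraction, so their medians of opposite sign are not independent.

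The effect of hydroxyurea was compared between knockdown and control as an interaction. By edgeR and by DESeq2 0 of 75 members were called in total RNA, polysomal RNA or TE, beside 0% of genes in each. Unadjusted p-values under 0.05 numbered 0 in total RNA, beside 2.90% of genes, 0 in polysomal RNA, beside 1.07%, and 1 in TE, beside 1.90%. The medians were 0, -0.19 and -0.22, beside 0, 0.05 and 0.02 for all genes. Leaving out 1 replicate, for TE with both of its libraries, moved the polysomal median between -0.26 and -0.10. It moved the TE median between -0.32 and -0.14. The smallest of each in size came without siLSM14A NT replicate 2. The 1 member was MRPL21, whose polysomal level was 49.1, 44.6 and 39.1 CPM in siCTRL NT, 55.5, 56.9 and 45.4 in siCTRL HU, 47.4, 62 and 45.8 in siLSM14A NT, and 47.7, 46.3 and 42.9 in siLSM14A HU. The TE interaction was -0.53 (SE 0.229, edgeR adjusted p of 0.896). The median SE of a member for the interaction was 0.243 in TE and 0.0906 in total RNA.

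**Figure D5:**
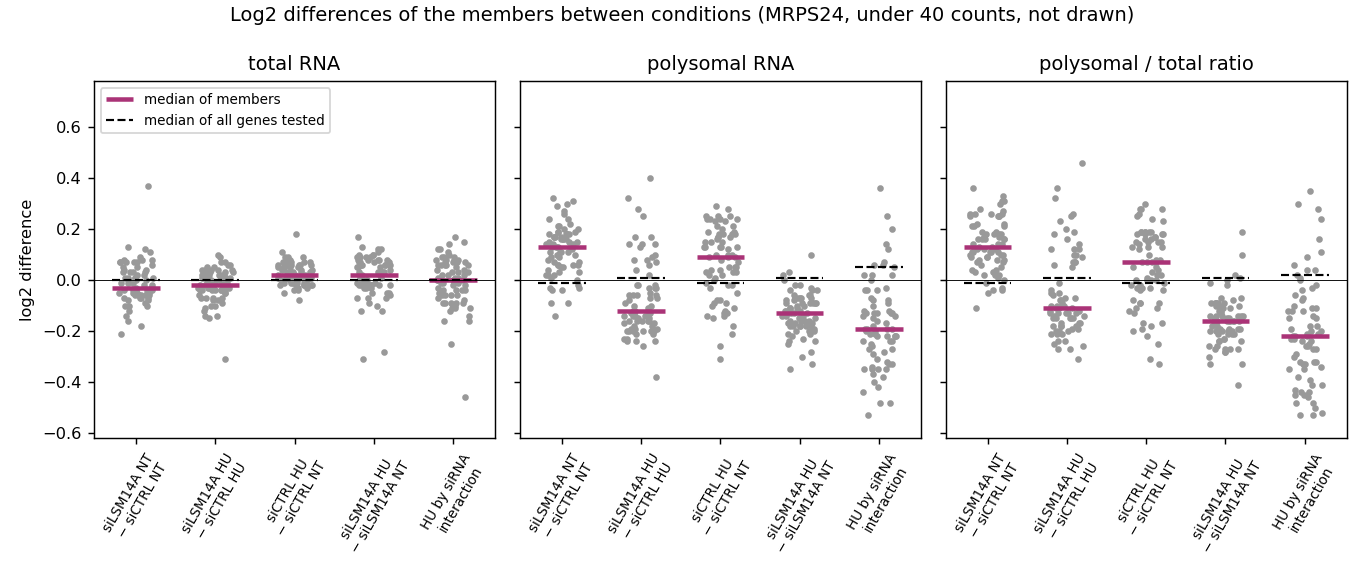
Log2 differences of the members (vertical axis) other than MRPS24, which had at most 36 counts, are plotted as grey points for 5 comparisons each in total RNA, polysomal RNA and the polysomal to total ratio (horizontal axis), with purple lines at the members' median and dashed lines at the median of all genes tested. In total RNA the medians lie within 0.03 of 0, while in polysomal RNA and in the ratio they run from -0.22 to 0.13, with 0 members called in any panel.

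Other genes of mitochondrial translation were described beside the members. The 5 mitoribosomal proteins with other symbols had a median ratio of 0.33, from PTCD3 at 0.12 to AURKAIP1 at 1.00. The 22 assembly factors had a median of 0.32, from METTL15 (-0.83), a methyltransferase of the small subunit RNA, to DHX30 (1.90), an RNA helicase. The 20 mitochondrial aminoacyl-tRNA synthesis genes had a median of 0.51. The 14 translation factors had a median of -0.08 and ran from the release factor MTRF1 (-1.55) to the elongation factor TUFM (1.34). In the 15 comparisons between conditions 1 gene of these 4 lists was called, OXA1L, which inserts mitochondrially made proteins into the inner membrane. Its total RNA was at 160, 161 and 165 CPM in siCTRL NT and 121, 134 and 127 in siLSM14A NT, and at 168, 155 and 158 CPM in siCTRL HU and 134, 138 and 128 in siLSM14A HU. OXA1L fell by 0.35 (SE 0.0525, edgeR adjusted p of 0.0154) without and by 0.27 (SE 0.0544, edgeR adjusted p of 0.0401) with hydroxyurea on the log2 scale. It stayed past the threshold in 10 of 14 and in 8 of 14 alternatives, with log2 differences from -0.38 to -0.32 and from -0.30 to -0.24 over these alternatives and adjusted p-values up to 0.153 and 0.167. Without hydroxyurea the call was lost with the replicate block and without siLSM14A NT replicate 1, siCTRL NT replicate 2 or siCTRL NT replicate 3, and with hydroxyurea it was lost without any 1 of the 6 libraries. Over all genes 0.566% were called in total RNA for the knockdown without hydroxyurea and 0.802% with it. In polysomal RNA OXA1L differed by -0.40 (SE 0.168) without and by -0.36 (SE 0.133) with hydroxyurea, and was not called.

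The cytosolic ribosomal proteins and the nuclear subunits of the respiratory chain had TE medians of the same sign as the members and larger size in the comparisons given here. For the TE interaction the medians were -0.52 over 79 cytosolic ribosomal protein genes and -0.37 over 76 respiratory chain genes, beside -0.22 over the members, and edgeR called 0 genes of either list. For hydroxyurea in siLSM14A cells they were -0.34 and -0.23, beside -0.16, and for knockdown without hydroxyurea 0.27 and 0.18, beside 0.13. These comparisons share libraries, and the difference between the lists was not tested. The median mean ratio was 0.01 over the cytosolic ribosomal proteins and 0.31 over the respiratory chain, beside 0.35 over the members.

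Several members were counted with reserve. Of the 76, 10 had under 500 counts in some library, and 9 had under 80% of their exonic bases to themselves, among them MRPL53 (27.2%), MRPL12 (30.5%) and MRPL38 (58.9%). The library kit keeps the strand, but the strand setting of the counting was not stated. GENCODE lists 70 pseudogenes named after 34 of the members, and reads that fit a pseudogene as well as its parent can be lost to the count. Without the members of low count or shared exons the median ratio over the remaining 63 was 0.38, beside 0.35 over all 75 tested.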

How the data were processed

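RNA of 24 samples was analysed, total and heavy-polysome RNA in 4 conditions with 3 replicates each. The labels of every sample name A2058, which the study's methods give for this experiment too, although a legend of the study names another melanoma line, A375. The authors trimmed reads with TrimGalore, aligned them to hg19 with STAR (version 2.6.1a) and deposited raw counts per gene from STAR's gene counter (Gencode release 34). STAR counts reads that map to 1 place. Symbols, exon lengths and GC content came from GENCODE release 44 lifted to GRCh37, which held 19637 of 20345 gene IDs. Of these 19086 were protein-coding and entered the tests.

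Tests on the counts used edgeR 4.0.16 under R 4.3.3 (TMM, filterByExpr with a minimum count of 10, quasi-likelihood F-test, Benjamini-Hochberg adjustment over all genes tested, threshold 0.05), using the groups compared in each test. The SE is the log2 difference over the square root of F. TE was the interaction of fraction and condition. Log2 CPM for ratios used a prior count of 2. Alternatives were DESeq2 1.42.0, RLE size factors, 2 other filters, all genes, a replicate block, a block for each pair of total and polysomal libraries for TE, a GC correction (loess span of 0.3) and leaving out each replicate. On simulated counts with 200 changed genes at a fold of 2, the tests recovered 94.0% for the knockdown in total RNA (12462 genes) and 56.5% for TE of hydroxyurea in siLSM14A cells (12544 genes). They also called 23 unchanged genes beside 187 changed ones, and 9 beside 113. Among the 63 members with enough counts and unshared exons, the largest log2 differences in these comparisons were -0.18 and -0.33. A fold of 2 is larger, so the recovery does not give the power for such differences. Replicate libraries differed beyond sampling noise (chi-square per gene of 6.16 to 121, correlation of 0.978 to 0.996), so none was counted as a duplicate.

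The labels number the replicates 1 to 3 in every group. Whether equal numbers deviated together from their group means was checked by correlation. All 3 pairs exceeded 0.1 for hydroxyurea in siCTRL cells (total RNA 0.27, 0.25 and 0.19, polysomal 0.25, 0.18 and 0.45), for the knockdown under hydroxyurea in total RNA (0.33, 0.18 and 0.25) and between fractions of siLSM14A HU (0.17, 0.15 and 0.24). In every other comparison checked not all 3 did. Between fractions they were 0.13, 0.16 and 0.06 in siCTRL NT, and 0.12, 0.06 and 0.14 in siCTRL HU. In siLSM14A NT they were -0.31, 0.11 and -0.23, so equal numbers did not deviate together there. The log2 ratios pair the fractions by number in every condition, siLSM14A NT included. Their SDs and their counts over pairs depend on this pairing.

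The members and gene lists were chosen with earlier results of these data known. Members named in the text were, for each comparison of conditions, the one with the smallest p in each direction, the 6 highest and 6 lowest by ratio, the 4 highest and 4 lowest by level per kb, the 3 longest and 3 shortest, and members listed by role. Other members are given by counts. MRPL27, MRPL52 and MRPL53 were named after their values were seen.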

Additional observations from a re-analysis of the deposited data

How the results depend on the processing

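In the 15 comparisons between conditions 0 members were called under each alternative run: DESeq2, RLE size factors, other filters on low counts, all genes, the replicate block, the block by library pair, GC correction and leaving out each replicate. Over all genes the main setting called at most 0.802% in any of these comparisons. The replicate block changed no call there, and between fractions it called 43, 54, 45 and 48 members (siCTRL NT, siCTRL HU, siLSM14A NT, siLSM14A HU) in place of 44, 54, 47 and 48. Leaving out 1 library moved the members' median between -0.05 and 0.01 for the knockdown in total RNA without hydroxyurea (0.01 without siLSM14A NT replicate 3), between 0.01 and 0.17 for the same knockdown in polysomal RNA, and between -0.17 and -0.01 for hydroxyurea in siLSM14A polysomal RNA (0.01 and -0.01 without siLSM14A NT replicate 2). For TE and between fractions, a replicate was left out with both its total and its polysomal library. For the knockdown under hydroxyurea the median moved between -0.17 and -0.02 in polysomal RNA and between -0.12 and -0.03 in TE. For hydroxyurea in siCTRL cells it moved between 0.01 and 0.14 in polysomal RNA and between 0.01 and 0.10 in TE. Between fractions the calls moved between 27 and 47 in siCTRL NT (27 without replicate 2). In siLSM14A HU they moved between 30 and 45 (30 without replicate 1). The siLSM14A HU median moved between 0.23 and 0.28, with 0.28 also under RLE size factors. By library totals, chosen after seeing the data, the medians between fractions were -0.06, -0.09, 0.10 and -0.07, since total and polysomal libraries had different TMM factors. GC correction turned the sign, without and with the replicate block, of MRPL50 (0.11 and 0.11), MRPL13 (0.17 and 0.16), MRPS34 (-0.19 and -0.19), MRPL41 (-0.05 and -0.07), MRPL12 (-0.14 and -0.15), MRPL19 (0.15 and 0.15), MRPL11 (-0.17 and -0.17), MRPS18C (0.70 and 0.68), MRPL3 (0.46 and 0.46) and MRPS22 (0.49 and 0.48) between fractions, and of MRPL50 for TE of hydroxyurea in siLSM14A cells (-0.07 and -0.07), and the cause was not tested. With 3 libraries a group, polysomal differences near the median SE of 0.149 to 0.173 could not be resolved.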
